A study of Rattus norvegicus with 24 samples.

Results

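The opioid receptor and opioid peptide genes were followed in single sensory neurons of the rat dorsal root ganglion (DRG), the ganglion that holds the cell bodies of the nerve fibres. The 7 members were taken by gene name, as the family of opioid receptors and peptides, out of 32881 genes shared by all count tables. They are 4 receptor genes, Oprm1 (ENSRNOG00000018191, mu receptor), Oprd1 (ENSRNOG00000010531, delta receptor), Oprk1 (ENSRNOG00000007647, kappa receptor) and Oprl1 (ENSRNOG00000016768, nociceptin receptor), and 3 peptide precursor genes, Penk (ENSRNOG00000008943, proenkephalin), Pdyn (ENSRNOG00000026036, prodynorphin) and Pnoc (ENSRNOG00000014231, prepronociceptin). All 7 had at least 1 unique molecular identifier (UMI, one captured mRNA molecule) in the 1433 neurons kept out of 1464 in the tables. Kept neurons had 500 genes and 1000 UMIs or more, and mitochondrial genes gave less than 5% of their UMIs.

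The neurons came from male Sprague-Dawley (SD) rats and were picked by mouth pipette from the L4 and L5 DRG of the operated side. In the labelled libraries, dye in the nerve branches marked the neurons to pick. Per the paper it was injected into the exposed nerve in a surgery weeks before the operation, in sham rats too. The operation was either a sham (Sham, sciatic nerve exposed and not crushed, 4 DRG samples) or a spared nerve crush (SNC). Neurons were collected 1 d (4 samples), 3 d (3 samples) or 7 d (5 samples) after SNC. SNC crushes the tibial and common peroneal branches and spares the sural branch, so each labelled sample holds directly and indirectly injured neurons, and the tables do not say which cell is which. In 7 added sham libraries, whose labels name no dye and no injured cells, neurons came from rats at Sham-0 day (3 libraries), Sham-1 day (2), Sham-3 day (1) and Sham-7 day (1). The labels give no genotype or agent that separates the groups, and no age. Each sample was treated as 1 replicate. Per the paper, ganglia of at least 5 rats were taken at each time point, and no animal is named per sample. The p-values thus measure the spread between these samples, which may be partly technical.

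Mu, delta and kappa receptors are inhibitory G protein-coupled receptors. On the terminals of primary afferents they close calcium channels and reduce transmitter release, which underlies part of opioid analgesia at the spinal level. Enkephalins, cut from proenkephalin, act mainly at delta and mu receptors, dynorphins, cut from prodynorphin, act mainly at kappa receptors, and nociceptin, cut from prepronociceptin, acts at the receptor encoded by Oprl1, which binds classical opioids poorly. In DRG neurons Oprm1 is best known from peptidergic nociceptors, the pain-sensing neurons that release neuropeptides such as substance P and calcitonin gene-related peptide.

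The results turn mainly on Pdyn and Oprm1, so their promoter windows are given here. RefSeq sequence of the assembly GRCr8 was used, from 250 bases before to 50 bases after an annotated start, 5′ to 3′ on the strand of the gene. The count tables use another assembly, Rnor_6.0, and were matched by symbol. The table of promoters matched 3 of the 7 members. The Pdyn window lies on chr3:137366454-137366753, minus strand, and holds 1 TATA box (TATAAA, in capitals) that starts 13 bases before the start site. Oprm1 has a pair of listed starts on the plus strand of chromosome 1, with windows at chr1:45585733-45586032 and chr1:45565121-45565420.
Pdyn: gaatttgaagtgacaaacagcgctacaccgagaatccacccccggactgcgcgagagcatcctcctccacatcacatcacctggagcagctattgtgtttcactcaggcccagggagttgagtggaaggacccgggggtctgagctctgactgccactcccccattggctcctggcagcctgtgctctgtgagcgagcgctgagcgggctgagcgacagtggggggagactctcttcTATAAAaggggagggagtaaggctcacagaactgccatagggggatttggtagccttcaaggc
Oprm1 first window: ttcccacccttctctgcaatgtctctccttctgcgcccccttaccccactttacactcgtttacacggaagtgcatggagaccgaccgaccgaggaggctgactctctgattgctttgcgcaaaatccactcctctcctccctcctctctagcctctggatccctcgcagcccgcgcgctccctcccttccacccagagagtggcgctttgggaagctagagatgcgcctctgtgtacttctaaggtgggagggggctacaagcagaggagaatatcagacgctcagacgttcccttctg
Oprm1 second window: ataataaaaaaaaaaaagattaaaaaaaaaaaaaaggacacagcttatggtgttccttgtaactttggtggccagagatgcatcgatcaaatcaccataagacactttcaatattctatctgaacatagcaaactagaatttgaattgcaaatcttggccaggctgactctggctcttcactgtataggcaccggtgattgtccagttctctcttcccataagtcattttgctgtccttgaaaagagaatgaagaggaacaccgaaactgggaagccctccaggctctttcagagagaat
Both strands were searched for 4 motifs that do not overlap each other in these windows, the TATA box TATAAA, the GC box GGGCGG, the cAMP response element TGACGTCA and the AP-1 site TGANTCA. Apart from the TATA box of Pdyn none of these letters was found in the 3 windows, whereas 14.2% of 33469 promoters in the table held the TATA box, 33.1% the GC box, 1.83% the cAMP response element and 7.33% the AP-1 site. The window of Oprd1, at chr5:149624950-149625249 on the minus strand, held 4 GC boxes.

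The 16 labelled samples held 930 kept neurons and the added libraries 503. Total UMIs ranged from 4002503 to 40732975 per sample, and the median neuron had 239286 UMIs in the labelled and 340145 in the added libraries. No cell name occurred in more than one library and no cell repeated the values of another. The injury gene Sprr1a went against what the group names would lead a reader to assume. It was found in 84.7% of labelled neurons, Sham included, and in 0.199% of added sham neurons, and it did not differ between SNC and Sham (log2 fold change 0.04 ± 0.41 (SE) at 1 d). A pair of labels also sat against it at 7 d, since the sample labelled with 20 directly injured cells of 24 (19-1) had Sprr1a at 100 CPM or more (CPM, the UMIs of a gene per 1e6 UMIs) in 20.8% of its cells and the sample labelled with 4 (19-2) in 58.3%. The libraries S1 and S2 of the Sham-0 day group stood apart in neuron types, with no peptidergic-like neuron in S1, 3 in S2 and no neurofilament-like neuron in either, so the results on the added set are also given without them.

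Neurons were clustered with the 7 members and Sprr1a removed from the variable genes, and clusters were named from marker lists. The 10 clusters of the labelled set included peptidergic nociceptors (PEP1-like, PEP2-like and PEP3-like), Nefh-rich mechanoreceptors (NF-like, a Shox2/Ntng1 and a S100a16/Kcnv1 cluster), nonpeptidergic nociceptors (NP-like), somatostatin-family itch neurons (SST-like, an Il31ra/Osmr and a Sst/Nppb cluster), a Trpm8-like cluster and an unnamed cluster led by glial genes. The 7 clusters of the added set were named A0 to A6, and its PEP-like cluster A0 was not split and also carried all 6 glial markers. Levels are CPM of the UMIs summed over the cells of a sample, as mean ± SD over samples with at least 3 such cells. Since the clusters come from the same cells, differences between them are given with no test. UMIs come from the 3′ ends of transcripts and genes are captured unequally, so levels are compared between cells and not between genes.

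The receptor genes were found in most neurons, and the peptide genes in fewer. At least one receptor gene had a UMI in 71.9% of labelled and 78.7% of added neurons, at least one peptide gene in 49.2% and 41.2%, and a receptor gene together with a peptide gene in 37.6% and 37.2%. None of the 7 was seen in 16.5% of labelled and 17.3% of added neurons. Oprl1 had a UMI in 63.2% of labelled and 69.6% of added neurons, and Oprm1 in 29.5% and 37.8%. Oprk1 was found in 6.34% and 17.5%. Pdyn stood out by its difference between the sets, with 40.4% of labelled but 4.57% of added neurons. Penk went the other way, with 10.9% and 34.6%. Pnoc was rare in both, at 6.13% and 7.95%.

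Oprd1 was close to the limit of detection. It gave 19 UMIs in 8 labelled neurons and 23 UMIs in 14 added neurons, and no UMI remained when each cell was thinned to 20000 UMIs. It passed no filter on low counts, so no comparison below includes it. Thinning to equal depth left Oprm1 at 8.13% of labelled and 6.90% of added neurons, Oprl1 at 23.5% and 35.1%, and Pdyn at 12.6% and 0.609%. The order of the labelled and added sets thus turned over for Oprm1 and held for Oprl1 and Pdyn.

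Oprm1 was highest in PEP3-like neurons, the cluster rich in Tac1, Calca, Trpv1 and Trpa1. Its level there was 17.6 ± 6.32 CPM over 11 samples, from 7.88 in SNC 1 d sample 16 to 32.4 in Sham sample 4 with a median of 17.0, and 75.9% of the cells had a UMI. All 11 samples were higher in these neurons than in their other cells. The unnamed glial-gene cluster (8.67 ± 6.59 CPM, 7 samples) and the S100a16/Kcnv1 NF-like cluster (6.73 ± 5.93 CPM, 15 samples) followed and could not be separated from each other, their spreads overlapping widely. PEP1-like neurons had 3.60 ± 1.83 CPM and PEP2-like neurons 1.09 ± 1.92 CPM over 16 samples each. The Shox2/Ntng1 NF-like cluster lay at 0.27 ± 0.34 CPM over 12 samples although its neurons were the deepest, with a median of 526885 UMIs. In the added set the PEP-like cluster had 10.8 ± 5.71 CPM with a UMI in 66.9% of cells, above the other cells in 6 of 6 samples, and the Shox2/Ntng1 NF-like cluster again was low, at 0.85 ± 0.40 CPM over 5 samples.

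Oprk1 was seen in few neuron types. PEP3-like neurons had 10.1 ± 18.6 CPM over 11 samples with a median of 3.15, and 21.6% of these cells had a UMI. The highest sample, SNC 1 d sample 17-2 at 65.2 CPM, held all its 70 UMIs in 1 of 3 such cells and pulled the mean far above the median. Trpm8-like and Sst/Nppb SST-like neurons had no Oprk1 UMI and PEP2-like neurons had 0.03 ± 0.12 CPM. Added PEP-like neurons had 16.7 ± 16.2 CPM over 6 samples (31.6% of cells) and added Shox2/Ntng1 NF-like neurons 7.22 ± 6.06 CPM over 5 samples (37.1% of cells). These 2 levels overlapped, while every other added cluster stayed below 0.2 CPM.

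Oprl1 was found broadly, and its highest labelled mean was in a mechanoreceptor cluster. Shox2/Ntng1 NF-like neurons had 31.7 ± 5.91 CPM over 12 samples with a UMI in 94.5% of cells, higher than the other cells in 11 of 12 samples. S100a16/Kcnv1 NF-like (29.3 ± 16.4 CPM), Trpm8-like (25.2 ± 10.4 CPM), PEP3-like (23.5 ± 8.84 CPM) and Sst/Nppb SST-like neurons (22.5 ± 11 CPM) came next and did not differ beyond their spread. The low end held PEP2-like (7.51 ± 3.80 CPM) and NP-like neurons (4.62 ± 3.62 CPM). The added set had 49.0 ± 9.24 CPM in Shox2/Ntng1 NF-like neurons (95.9% of cells) and 2.99 ± 3.73 CPM in NP-like neurons. Its PEP-like cluster was at 41.5 ± 20.2 CPM with a median of 47.9, which overlapped the NF-like level.

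Pdyn was highest in the PEP2-like, Il31ra/Osmr SST-like and PEP1-like clusters of the labelled set. PEP2-like neurons had 17.0 ± 15.3 CPM with a UMI in 49.7% of cells, Il31ra/Osmr SST-like neurons 14.4 ± 5.08 CPM with 65.3%, and PEP1-like neurons 11.8 ± 10.8 CPM with 54.3%. Their spreads overlapped, so no order is given among these 3. PEP3-like neurons, the leading cluster for Oprm1, had 0.63 ± 0.56 CPM and stood below the other cells in all 11 samples. In the added set Pdyn had 57 of its 68 UMIs in the Shox2/Ntng1 NF-like cluster (1.47 ± 1.22 CPM, higher than the other cells in 5 of 5 samples), 7 UMIs in the 136 PEP-like neurons, and none in clusters A2, A4, A5 and A6.

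Penk was strongest in labelled Trpm8-like neurons (58.9 ± 105 CPM over 5 samples), a mean that came from a single sample, S at 7 d after SNC, with 243 CPM against a median of 4.81. One cell carried 32.5% of all labelled Penk UMIs. NP-like neurons had 3.80 ± 4.42 CPM and every other named labelled cluster less than 2.1 CPM. In the added set Penk was spread over more cells, with 20.4 ± 13.7 CPM in the unnamed Rbp2/Mrgprb4 cluster, 17.8 ± 13.4 CPM in Shox2/Ntng1 NF-like and 5.90 ± 3.73 CPM in PEP-like neurons, each with a UMI in 44% to 45% of its cells. Pnoc was found mainly in labelled Shox2/Ntng1 NF-like neurons, with a UMI in 24.2% of cells. Their level of 9.21 ± 24.4 CPM rested on 1 sample, SNC 7 d sample 9 with 85.7 CPM, against a median of 0.81. One cell held 43.2% of the labelled Pnoc UMIs.

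**Figure D1:**
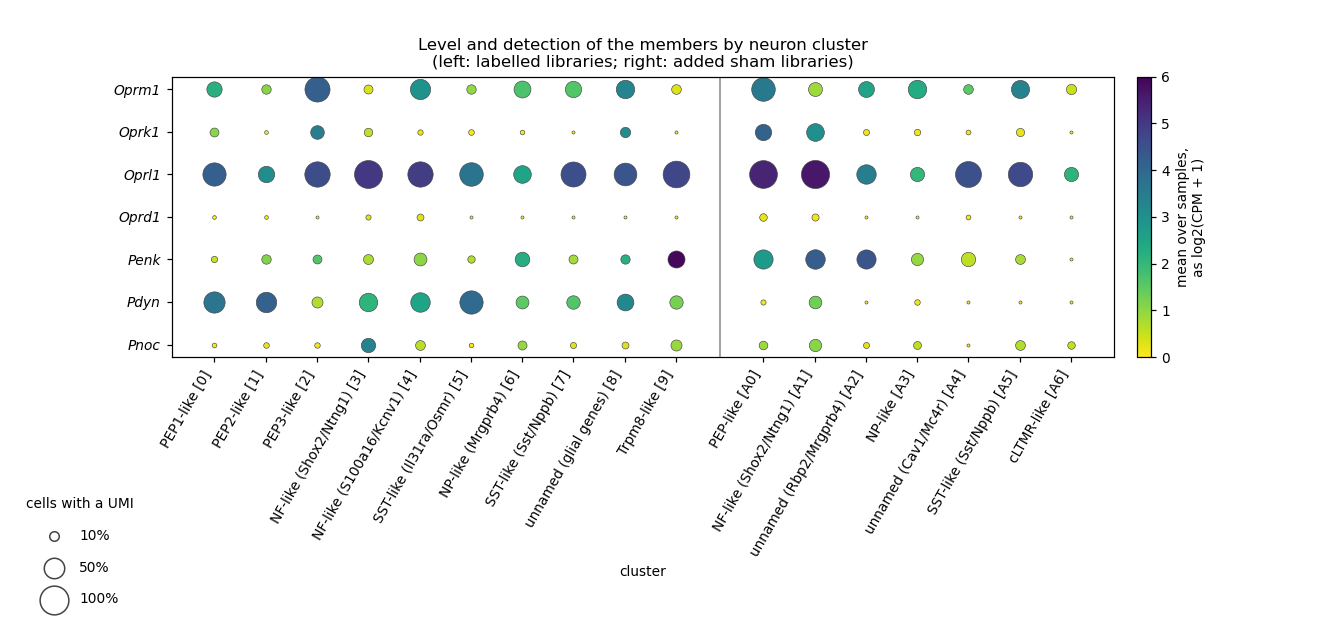
Level and detection of the 7 members in each neuron cluster. Rows are genes and columns are clusters (labelled set left of the line, added sham set right of it); dot colour gives the mean over samples of CPM as log2(CPM + 1) and dot area the percent of cells with a UMI. Mean Oprm1 is highest in PEP3-like and added PEP-like neurons and mean Oprl1 in Shox2/Ntng1 NF-like neurons of both sets. Other clusters overlap these levels for Oprl1 and, in the added set, for Oprm1. Pdyn is near 0 in the added set.

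Overlap in single cells followed the neuron types. Among 886 labelled neurons with at least 20000 UMIs, Oprm1 and Oprl1 were both seen in 197 (22.2%), beside 21.4% given by the product of the single shares within each cluster. Oprm1 and Pdyn met in 94 neurons (10.6%, product 10.4%), and Oprl1 and Pdyn in 261 (29.5%, product 26.7%). Each observed share was close to its product. Oprm1 and Oprk1 met in 34 neurons where the product gives 28.2, and these were 57.6% of Oprk1 neurons and 12.5% of Oprm1 neurons. In 493 added neurons, Oprm1 and Penk met in 82 (16.6%, product 14.4%) and Oprk1 and Oprl1 in 83 (16.8%, product 16.1%), which were 95.4% of the Oprk1 neurons. All these shares fall with depth: at 20000 UMIs per cell Oprm1 with Oprl1 was seen in 2.48% of labelled neurons.

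The genes whose levels ran most alike over single cells were found by Spearman correlation of log2(CPM + 1) over 14581 genes, as a description, since the cells share libraries and depth. Oprm1 ran with Tdo2 (0.43 over 930 labelled and 0.37 over 503 added neurons), Scg2, a secretogranin of neuropeptide vesicles (0.43 and 0.30), and Rab36 (0.40 and 0.29). Oprl1 ran with Lgi3 (0.44 and 0.60), Lrrn2 (0.44 and 0.62) and LOC100125362 (0.44 and 0.60), and here the added set gave the higher values. Pdyn ran with Mcm5 (0.45), Rhpn1 (0.45) and Bin1 (0.43) in the labelled set, and its added-set values for them were 0.04, 0.07 and 0.14. Sprr1a stood at rank 29 for Pdyn with 0.38, and near the opposite end for Oprm1 with −0.30. Correlations were weaker for the 3 members with sparse counts, and are given for labelled and then added neurons. Pnoc ran with Grid1 (0.28 and 0.30), B3galt5 (0.28 and 0.21) and Ndst4 (0.27 and 0.23). The values for Oprk1 were 0.26 and 0.10 with Ripor2, 0.23 and 0.24 with Scara3, and 0.23 and 0.13 with Tcf15. Those for Penk were lower in the added set, at 0.23 and −0.12 with Tnni3k, 0.23 and 0.05 with Gabarapl2, and 0.22 and 0.12 with Tmem54.

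Whether the crush moved the members was asked first over all neurons of a sample. No member passed the test at any time. By the dates the paper lists, Sham samples Xin, 4 and 10 were reverse transcribed about a year before all samples at 1 d and 3 d. Sham sample 18 alone shared their period, while the 7 d samples came from both periods. At 1 d and 3 d, group and period of reverse transcription thus largely differ together and can hardly be told apart. Pdyn was at 2.36 CPM in Sham sample 4, 4.87 in 18, 5.49 in 10 and 34.0 in Xin. After SNC it ranged from 2.55 to 8.27 CPM at 1 d, from 5.43 to 6.77 at 3 d, and from 2.96 to 11.6 at 7 d. Sham sample Xin, the shallowest sample, lay above every other sample, Sham sample 4 lay just below the range after SNC, and Sham samples 10 and 18 lay inside it. Oprm1 was at 4.49, 5.02, 5.72 and 1.00 CPM in Sham samples 10, 18, 4 and Xin, and from 1.03 to 6.81 CPM over the 12 samples after SNC. Oprl1 was at 22.7, 22.8, 18.3 and 9.99 CPM in the same Sham samples and at 14.0 to 41.2 CPM with a median of 19.6 after SNC. Xin was low for both, and otherwise the groups overlapped.

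Neurons of single classes gave the same picture. In edgeR's quasi-likelihood test on summed counts with Benjamini-Hochberg adjustment over all genes, 0 of 48 member tests in 12 comparisons (all neurons, PEP-like, NF-like and SST-like neurons at 3 times) had an adjusted p below 0.05, where 0% of all genes tested were called in 11 of the comparisons and 0.00857% in PEP-like neurons at 3 d. DESeq2 also called 0 members. A single member test had an unadjusted p below 0.05, Pdyn in PEP-like neurons at 1 d, with a log2 fold change of −1.59 ± 0.60 (SE) and an adjusted p of 0.569, and this was −0.35 without Xin. Over all neurons the log2 fold change of Pdyn was −1.30 ± 0.68 at 1 d, −0.98 at 3 d and −0.52 at 7 d, and without Xin it was 0.20, 0.52 and 0.99. Penk changed sign in the same way, from −1.57, −1.57 and −0.65 to 0.19, 0.18 and 1.11. Fold changes of the members ran from −2.36 to 2.42 on the log2 scale with standard errors up to 1.64. Single cells held 95.9% of the Oprk1 UMIs of sample 17-2, 84.0% of the Penk UMIs of S and 98.6% of the Pnoc UMIs of sample 9. The median log2 fold change over the 6 members tested in all neurons was −0.74 at 1 d, −1.02 at 3 d and −0.25 at 7 d. Over all genes it was −0.0059, −0.0049 and −0.0061. The 6 include Pdyn and Penk, which changed sign without Xin, so these medians give no direction for the family. Fewer neurons of a type and less mRNA per neuron cannot be told apart in such sums.

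**Figure D2:**
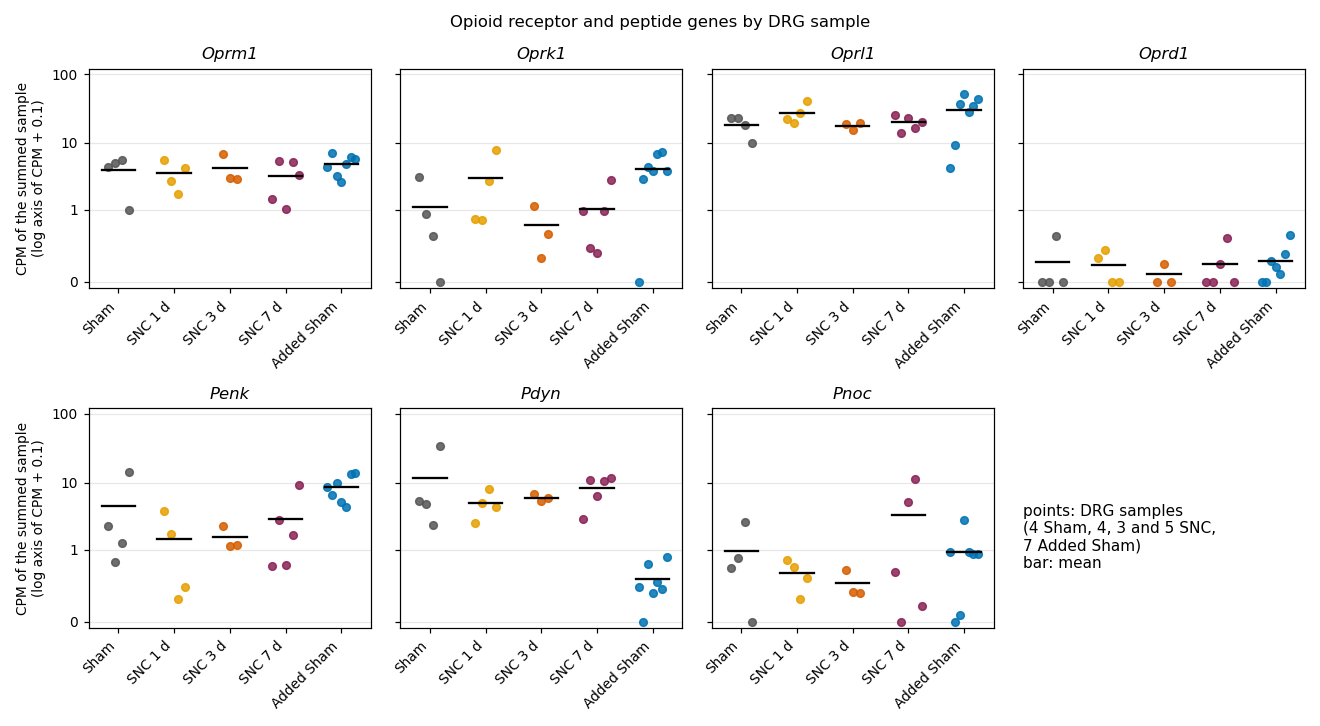
CPM of each member in every DRG sample, with UMIs summed over the neurons of a sample, on a log axis of CPM + 0.1. Points are samples of Sham, SNC 1 d, SNC 3 d, SNC 7 d and Added Sham and bars are means; the SNC groups overlap Sham for every member, and the 7 added libraries lie below all labelled samples for Pdyn.

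Time after a sham operation alone was tested between 4 later added libraries and 3 Sham-0 day libraries. None of the 5 members tested was called by edgeR (0% of all genes called) or DESeq2, and 0 had an unadjusted p below 0.05. Oprl1 had 4.28, 9.29 and 44.0 CPM at Sham-0 day in S1, S2 and S7, and 37.4, 35.0, 52.1 and 28.7 CPM in S3, S6, S4 and S5. S1 and S2 were low, S7 lay within the later libraries. The log2 fold change was 1.03 ± 0.66 (adjusted p = 0.586), and without S7 it was 2.46 with an adjusted p of 0.00602, a comparison that then sets S1 and S2 alone, the libraries poor in PEP-like and NF-like neurons, against the rest.

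The largest difference among the members lay between the labelled Sham samples and the added sham libraries, and it concerned Pdyn. The added libraries had 0.214, 0 and 0.745 CPM (S1, S2, S7), 0.579 and 0.196 CPM (S3, S6), 0.156 CPM (S4) and 0.270 CPM (S5). The labelled Sham samples, at 2.36 to 34.0 CPM, lay above all of them. The log2 fold change was 5.33 ± 0.82 (SE, 11 samples, edgeR adjusted p = 0.000366). Pdyn passed the filter on low counts through the labelled samples, in which it was high, and with no filter the value was 5.30 (adjusted p = 0.00017). Pdyn was the one member called of 6 tested, in a comparison that called 40.6% of all genes, and 27.6% of all genes had sets that did not overlap. Without Xin the log2 fold change was 3.89, and without S1 and S2 it was 5.10, both still called.

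The other members did not pass the test over all neurons. Oprk1 was at 0, 0.363, 0.836 and 3.16 CPM in the labelled Sham samples and at 0 to 7.49 CPM with a median of 3.89 in the added libraries. The sets overlapped, and the log2 fold change was −1.75 ± 0.96 (edgeR adjusted p = 0.161). Penk (−0.86 ± 0.72), Oprl1 (−0.57 ± 0.52), Oprm1 (−0.14 ± 0.41) and Pnoc (0.23 ± 1.05) were likewise not called. The median over all genes was −0.15 (−0.09 with DESeq2's size factors), so the values of Oprm1 and Oprl1 lay near it. Penk was at 14.2 CPM in Xin and at 0.618 to 2.33 CPM in the other labelled Sham samples, and without Xin its log2 fold change was −2.53 and called. Without S1 and S2, Oprk1 (−2.0) and Oprl1 (−0.89) were called as well, beside 42.7% of all genes.

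Classes given the same name in both sets were then compared one at a time. The added PEP-like cluster A0 was also rich in the NF markers S100a16, Kcnv1 and Nmb (3 of 11) and in Trpm8 and Rxfp1 (2 of 4 Trpm8 markers), so the name covers cells that may differ between the sets. In PEP-like neurons Pdyn was at 4.74, 7.70, 11.1 and 51.9 CPM in labelled Sham samples 4, 18, 10 and Xin, with a UMI in 36% to 78.6% of cells. The 6 added samples had 7 Pdyn UMIs together, 0 in 4 of them and at most 0.336 CPM. The log2 fold change was 7.68 ± 0.98 (edgeR adjusted p = 9.05e-05, 39.1% of all genes called). Pdyn entered this test through the labelled samples, in which it was high, and the size rests on the few added UMIs. In Shox2/Ntng1 NF-like neurons Pdyn was at 0, 3.80 and 4.07 CPM in 3 labelled Sham samples and at 0.256 to 3.43 CPM in 5 added ones. These overlapped, and the log2 fold change of 1.03 ± 0.99 was not called (adjusted p = 0.449, 25.5% of all genes called). The difference between the PEP-like and the NF-like fold change, tested as an interaction in edgeR over the 8 samples that held both classes, was 5.97 ± 1.36 on the log2 scale (adjusted p = 0.0407, 3.2% of all genes called). The same limit holds for it.

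Oprk1 was lower in labelled than in added Sham neurons of both classes. In PEP-like neurons it was at 0, 0, 1.78 and 2.41 CPM in the labelled samples against 1.49 to 48.2 CPM in the added ones, a log2 fold change of −3.44 ± 0.98 (edgeR adjusted p = 0.0132). One added sample, S7, lay among the labelled ones. The highest added value came from S2, with 3 PEP-like neurons, one of which held all 46 UMIs. In NF-like neurons it was at 0, 0 and 1.52 CPM against 1.47 to 14.9 CPM, −3.68 ± 1.21 (adjusted p = 0.0453), resting on 4 labelled UMIs in 1 sample that reached into the added range. In the same NF-like neurons Penk was at 0 to 2.66 CPM against 5.33 to 34.5 CPM and Oprl1 at 21.3 to 26.6 CPM against 37.7 to 62.5 CPM. Both were called beside 25.5% of all genes (edgeR, Penk −3.54 ± 1.01, adjusted p = 0.0284, and Oprl1 −0.86 ± 0.24, adjusted p = 0.0265). Oprk1 in both classes and Penk in NF-like neurons entered these tests through the added samples, in which they were high. The size for Penk rests on 10 labelled UMIs. Only Oprm1 and Oprl1 could be tested in NP-like (37.8% of all genes called) and Sst/Nppb SST-like neurons (18% of all genes called), and none was called, with an unadjusted p below 0.05 for Oprm1 in the latter (−2.83 ± 1.31).

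Dye labelling, with the earlier injection into the nerve, and library set differ together between these sets and cannot be told apart. Sprr1a (log2 fold change 12.2) and Atf3, a transcription factor of injured neurons (2.06 ± 0.28), moved with Pdyn. The labelled PEP-like class was made of PEP1-like, PEP2-like and PEP3-like neurons and the added one of cluster A0 alone. Summed glial markers (6 genes, none at 0) spanned 181 to 1330 CPM in labelled Sham and 122 to 823 CPM in added samples, immune markers (5 genes, up to 2 at 0) 8.00 to 34.8 and 4.71 to 17.1 CPM, and fibroblast and vessel markers (4 genes, up to 3 at 0) 2.45 to 10.7 and 6.13 to 36.6 CPM. Their part in the result was not tested. The median neuron had 214660 UMIs in labelled Sham and 340145 in the added set, and the part of depth was not tested either.

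**Figure D3:**
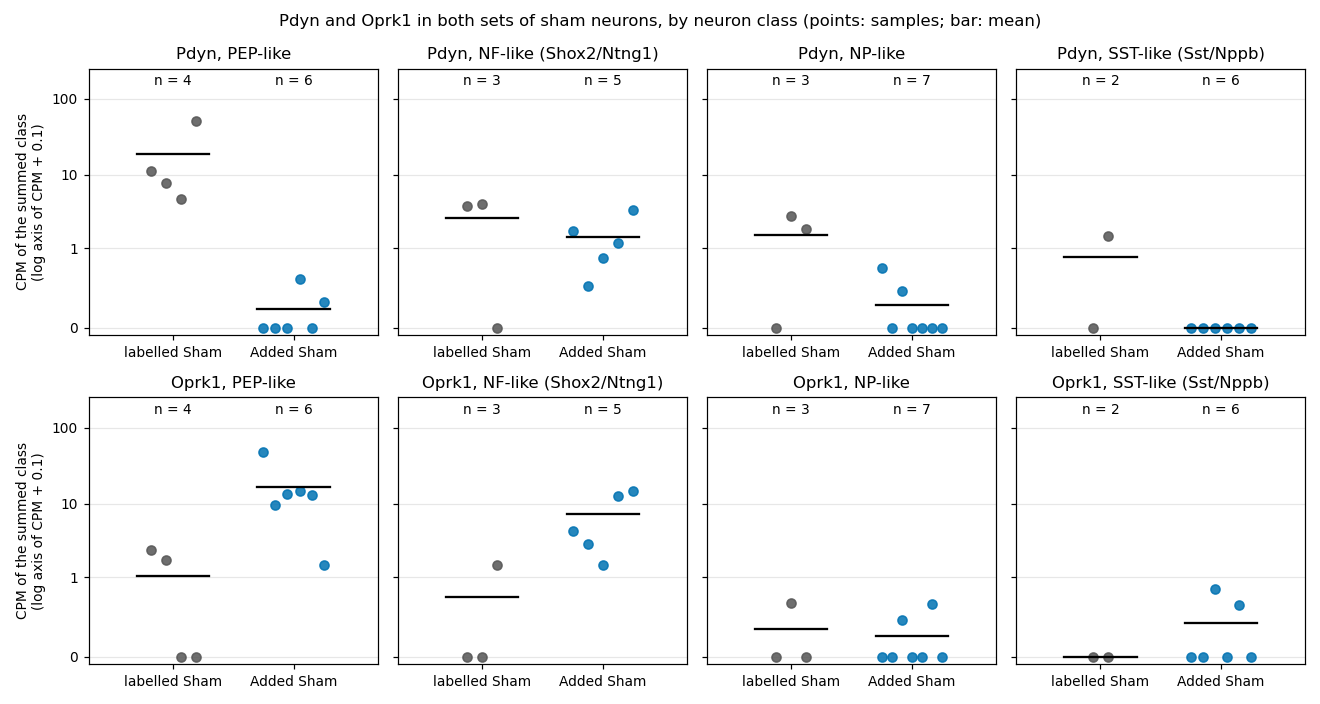
Pdyn (top) and Oprk1 (bottom) in labelled Sham and Added Sham samples within 4 neuron classes, as CPM of the summed class on a log axis of CPM + 0.1. Points are samples with at least 3 cells of the class and bars are means; for Pdyn the PEP-like samples of the sets are far apart (4.74 CPM or more against at most 0.336 CPM) while the Shox2/Ntng1 NF-like samples overlap.

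The members were next related to Sprr1a, a small proline-rich protein induced in sensory neurons by nerve injury, within the samples after SNC. A neuron was called Sprr1a-high at 100 CPM or more. This held for 335 of 715 neurons after SNC (46.9%), 78 of 215 labelled Sham neurons (36.3%) and 0 of 503 added ones, and 188 neurons after SNC lay between 50 and 200 CPM, so the classes are ranges of one measure. High and low cells of the same sample were summed and compared with the sample as a block.

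Oprm1 was lower and Pdyn higher in Sprr1a-high neurons. Oprm1 was at 0.250 to 4.33 CPM (median 1.40) in the high and 1.61 to 10.2 CPM (median 5.64) in the low cells of the 12 samples, lower in the high cells of 12 of 12, with means of 1.71 ± 1.26 and 5.53 ± 2.77 CPM. The log2 fold change was −1.83 ± 0.32 (SE, edgeR adjusted p = 0.000432). Pdyn was at 0.718 to 16.7 CPM (median 8.62) in the high and 1.68 to 6.87 CPM (median 3.77) in the low cells, higher in 11 of 12. The exception was sample 19-1, which had 5 high cells. The log2 fold change was 1.18 ± 0.24 (edgeR adjusted p = 0.00146), and both calls held when any sample was left out. With a limit of 500 CPM in place of 100, Pdyn was no longer called (0.54) while Oprm1 was (−2.51) and Oprl1 was too (−1.33). Of the 4 members tested these 2 were called, beside 27.2% of all genes, while 4.21% of all genes were lower in the high cells of every sample and 7.67% were higher in every sample or all but 1.

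Oprl1 (−0.10 ± 0.11) and Penk (−0.42 ± 0.62) were not called. Oprk1 had too few UMIs to be tested, at 0.286 ± 0.420 CPM in high and 3.10 ± 4.71 CPM in low cells, lower in 10 of 12 samples, and it was called without the filter (log2 fold change −2.98) and by DESeq2 (−3.75). Pnoc was also not tested. Median depth was 235008 UMIs in high and 256380 in low cells, and the summed glial markers spanned 110 to 964 CPM in high and 112 to 1233 CPM in low cells. In labelled Sham, Oprm1 was lower in the high cells of 4 of 4 samples (−2.17 ± 0.66, edgeR adjusted p = 0.161) and Pdyn higher in 3 of 4 (1.59 ± 0.78, adjusted p = 0.385), with no call among the 3 members tested, 1 of them (Oprm1) at an unadjusted p below 0.05, and 1.99% of all genes called. The exception for Pdyn was Xin, with 63.5 CPM in its 5 low cells. The difference between Sham and SNC in this relation was not tested.

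**Figure D4:**
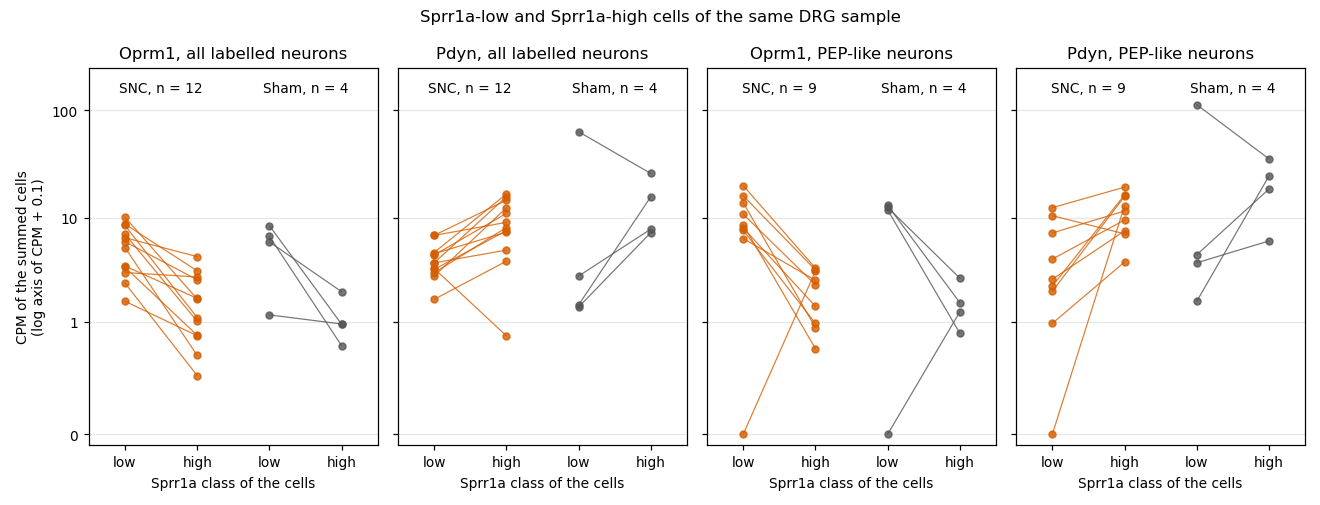
Oprm1 and Pdyn in Sprr1a-low and Sprr1a-high cells of the same DRG sample, for all labelled neurons and for PEP-like neurons, as CPM of the summed cells on a log axis of CPM + 0.1. Each line is one sample (orange after SNC, grey labelled Sham); Oprm1 falls from low to high in 12 of 12 SNC samples over all neurons and Pdyn rises in 11 of 12.

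Finer ranges of Sprr1a were described over pooled cells. After SNC, pooled Oprm1 was 8.31, 6.43, 4.21, 1.65 and 0.673 CPM in neurons with no Sprr1a UMI, up to 20, 20 to 100, 100 to 500 and 500 CPM or more. Pdyn was 1.02, 3.11, 5.75, 10.1 and 10.1 CPM over the same ranges. Labelled Sham neurons had 5.85, 7.48, 4.01, 1.52 and 0.302 CPM of Oprm1 and 1.07, 3.55, 4.15, 9.79 and 32.0 CPM of Pdyn. The same order of ends appeared in both groups. The neurons without a Sprr1a UMI after SNC were the shallowest, with a median of 96967.5 UMIs, against 394610 in the range up to 20 CPM.

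**Figure D5:**
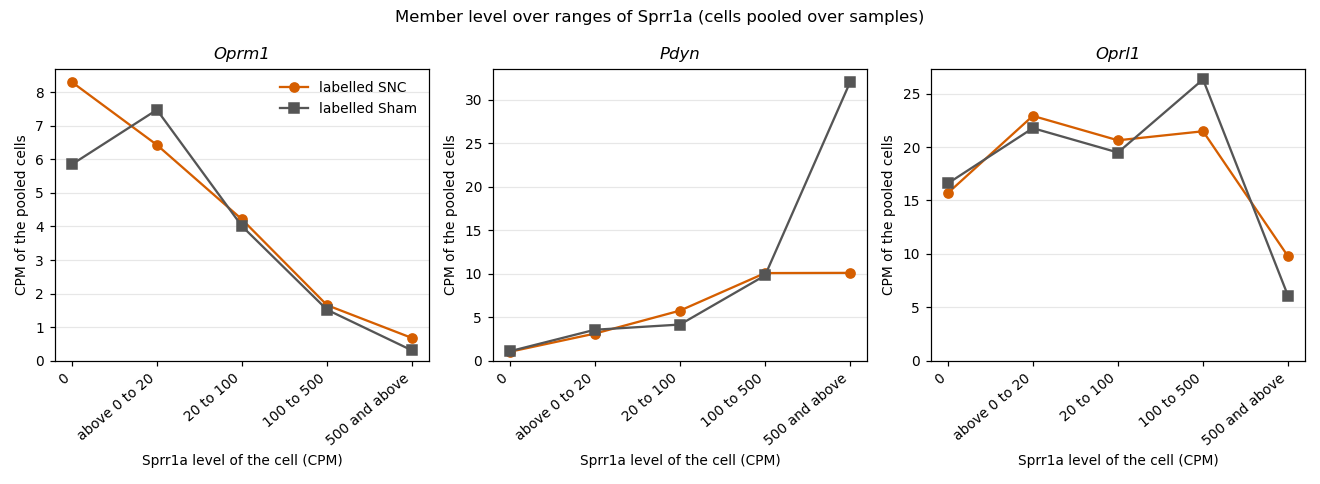
Oprm1, Pdyn and Oprl1 over 5 ranges of the Sprr1a level of the cell, as CPM of the cells pooled over samples (no error, since cells are not replicates). Orange circles are neurons after SNC and grey squares labelled Sham neurons; Oprm1 goes from 8.31 to 0.673 CPM and Pdyn from 1.02 to 10.1 CPM across the ranges after SNC.

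Neuron type moved with Sprr1a. The high share was 73.1% in PEP1-like, 70.8% in PEP2-like and 51.4% in Il31ra/Osmr SST-like neurons, the clusters richest in Pdyn, but 4.31% in PEP3-like neurons, the cluster richest in Oprm1, 4.41% in NP-like and 1.75% in Sst/Nppb SST-like neurons. It was 51.7% in Trpm8-like neurons, 47.6% in the unnamed glial-gene cluster, and 38.1% in S100a16/Kcnv1 and 36.3% in Shox2/Ntng1 NF-like neurons. The unnamed and the S100a16/Kcnv1 clusters followed PEP3-like neurons in Oprm1 and could not be separated from each other. With PEP-like neurons alone (9 samples, 16.4% of all genes called) all 3 members tested were called, Oprm1 at −2.35 ± 0.44 (edgeR adjusted p = 0.0016), Pdyn at 1.61 ± 0.39 (adjusted p = 0.00998) and Oprl1 at −0.77 ± 0.22 (adjusted p = 0.0218). Oprl1 was at 6.74 to 31.0 CPM (median 11.5) in high and 13.0 to 41.2 CPM (median 17.8) in low PEP-like cells, lower in 9 of 9 samples. Its call was lost without sample 9 (adjusted p = 0.0603), without sample 13 (adjusted p = 0.0702) and without the sample as a block (adjusted p = 0.0929). At a limit of 500 CPM in PEP-like neurons, Pdyn was at 0.54 and not called, Oprm1 could not be tested, and Oprl1 was called at −1.52 (adjusted p = 0.0269).

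These PEP-like contrasts still mixed clusters, since the low cells held most of the PEP3-like neurons. In PEP1-like neurons alone (7 samples, 0.214% of all genes called) Pdyn was at 1.33 ± 0.49 (edgeR adjusted p = 0.569), Oprl1 at −0.17 ± 0.48, and Oprm1 was not tested. Pdyn was higher in the high cells of 6 of these 7 samples (12.6 ± 6.41 and 4.05 ± 2.41 CPM) and Oprm1 lower in 5 of 7 (1.94 ± 2.10 and 5.98 ± 3.65 CPM). In PEP2-like neurons alone (1.07% of all genes called) no member passed the filter. There Pdyn was at 9.58 ± 5.61 CPM in high and 8.08 ± 10.2 CPM in low cells, higher in 4 of 6 samples, and Oprm1 at 1.49 ± 2.55 and 2.07 ± 3.23 CPM, lower in 3 of 6. PEP3-like neurons had too few high cells. NF-like neurons alone (9 samples, 4.46% of all genes called) had Pdyn at 6.29 ± 4.09 CPM in high and 3.23 ± 2.27 CPM in low cells, higher in 7 of 9, with a log2 fold change of 0.97 ± 0.48 (adjusted p = 0.272). SST-like neurons alone (4 samples, 10.2% of all genes called) had Pdyn at 15.4 ± 4.75 against 3.78 ± 1.60 CPM, 2.11 ± 0.60 (adjusted p = 0.0359), where the high cells were nearly all of the Il31ra/Osmr cluster. The PEP-like and NF-like fold changes did not pass a test of their difference for any member (Oprl1 −1.07 ± 0.33, adjusted p = 0.177, 0.207% of all genes called).

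Genes that work with opioid receptors and peptides were taken as a list of 43, in 5 roles. Over the 12 SNC comparisons edgeR called none, beside 0% of all genes in 11 of them, and 0 to 6 genes per comparison had an unadjusted p below 0.05. Between labelled and added Sham, 40 passed the filter, 2 were higher and 13 lower, 37.5% beside 40.6% of all genes, with a median log2 fold change of −0.40 beside −0.15. Of 14 tested genes of receptor coupling 5 were lower, the inhibitory G protein subunit gene Gnai2 (−0.47 ± 0.15), the N-type calcium channel gene Cacna1b (−1.30 ± 0.18), the adenylyl cyclase genes Adcy5 (−1.92 ± 0.24) and Adcy6 (−2.08 ± 0.62), and Kcnj5 (−6.09 ± 1.20), a subunit of G protein-gated potassium channels. Of 11 receptor regulators 5 were lower, among them the receptor kinase gene Grk2 (−2.09 ± 0.35) and Rgs4 (−1.08 ± 0.31), which speeds the turning off of G proteins, and Rgs19 was higher (0.80 ± 0.20). Furin (−2.32 ± 0.32), a convertase, was the one called of 6 processing genes, the peptidase genes Anpep (−4.23 ± 1.13) and Enpep (−4.56 ± 1.45) were called of 6 breakdown genes, and Pomc, the precursor of beta-endorphin, was higher (1.09 ± 0.26) at 21.6 ± 3.49 against 11.2 ± 3.82 CPM. All these values are from edgeR with an adjusted p below 0.05.

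With Sprr1a, 35 of the 43 genes were tested over all neurons after SNC, 4 were higher and 5 lower in the high cells, 25.7% beside 27.2% of all genes. Rgs10 (−0.92 ± 0.12) and Rgs4 (−1.04 ± 0.17) were lower in the high cells of 12 of 12 samples, as was Gnao1 (−0.21 ± 0.05), a G protein subunit through which opioid receptors act. Pcsk1, the convertase that makes the first cuts in opioid precursors, was lower (−0.40 ± 0.08), while Cpe, which trims the cut peptides, was higher (0.18 ± 0.05). In PEP-like neurons 2 were higher and 3 lower of 33 tested, 15.2% beside 16.4% of all genes. The shares called were close to those of all genes in each comparison.

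The pair of 7 d samples with opposite labels differed in several members, with 1 sample a side and so no test. Sample 19-1 (20 of 24 cells labelled directly injured) had Pdyn at 2.96 CPM (95% Poisson interval 1.96 to 4.27) and 19-2 (4 of 24) at 11.1 CPM (9.11 to 13.5). Oprm1 was at 1.48 CPM (0.808 to 2.48) and 5.35 CPM (3.99 to 7.04), and Oprl1 at 25.8 CPM (22.6 to 29.2) and 14.0 CPM (11.7 to 16.5). Pdyn and Oprm1 were higher in 19-2 and Oprl1 in 19-1, beyond counting error, which is the sole error these intervals cover. NF-like neurons were 41.7% of 19-1 and 12.5% of 19-2, and PEP-like neurons 37.5% and 41.7%. The direction of the labels is uncertain here, since Sprr1a was higher in 19-2. The paper's results and methods also name different dyes for the crushed branches. By the dye order of its methods, 19-2 would be the sample with mostly directly injured cells.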

How the data were processed

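The authors amplified single picked neurons by a modified Smart-seq2 protocol with UMIs, and per the labels used STAR, featureCounts of Subread, UMI-tools and SAMtools on Rnor_6.0 to deposit raw UMI counts per gene and cell, 1 table per library. Libraries S-2 and S-3 were summed as sample S. Counts were summed per sample, or per sample and class of at least 3 cells, and tested with edgeR 4.0.16 (filterByExpr, TMM, quasi-likelihood test, adjusted p below 0.05 over all genes tested). DESeq2 1.42.0, its size factors, no filter, thinning to 20000 UMIs, other Sprr1a limits, batch terms and leaving out each sample were alternatives. Classes come from Seurat 5.3.0 in R 4.3.3 (2000 variable genes, 40 components, resolution 0.5), run apart for both sets. Doublets were not called, since neurons were picked singly. The scripts were tested on simulated data. Samples ran from 4002503 to 40732975 UMIs, and intervals cover counting error only. Named genes are the 7 members, for each found in at least 5% of labelled cells the 3 most alike genes, and called genes of the opioid list, of which the text prints examples. Members and lists were chosen with earlier results of these data known.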

Additional observations from a re-analysis of the deposited data

Results flagged for a closer look

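One sample stood far from the rest of its group, by Dixon's criterion for groups of 4 to 10 samples, in 14 of 53 groups examined. The criterion is set to flag about 1 in 20 groups of normally distributed values. Sparse CPM values are not so distributed, so that rate is no measure for this count. By sample, these were Pdyn (34.0 CPM) and Penk (14.2 CPM) in Sham sample Xin, Penk in SNC 7 d sample S (9.25 CPM), Pnoc in the added library S4 (2.83 CPM), and Oprd1, a gene of few UMIs, in Sham sample 4 (0.363 CPM), SNC 7 d sample 9 (0.323 CPM) and the added library S7 (0.372 CPM). By cluster, these were Penk in Trpm8-like neurons of S (243 CPM), Oprl1 in Sst/Nppb SST-like neurons of Sham sample 10 (47.2 CPM), Oprl1 in the Rbp2/Mrgprb4 and cLTMR-like clusters of S4 (35.9 and 11.4 CPM), Oprm1 in the PEP-like and Rbp2/Mrgprb4 clusters of S2 (22.0 and 11.6 CPM) and Oprk1 in PEP-like neurons of S2 (48.2 CPM).

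The fold change of Pdyn between labelled and added Sham differed between PEP-like and Shox2/Ntng1 NF-like neurons, by 5.97 on the log2 scale (edgeR interaction, adjusted p = 0.0407, 8 samples). Pdyn entered this test through the labelled samples, in which it was high, and the size rests on few added UMIs.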

How the results depend on the processing

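Counts of called members over the 12 SNC comparisons were 0 under 300 of 300 alternatives run. Between labelled and added Sham the count of 1 became 0 with cells thinned to 20000 UMIs, where Pdyn was not tested, 2 in PEP-like, 3 in NF-like, 0 in NP-like and 0 in SST-like neurons alone, 3 without S1 and S2, and 1 to 2 with a sample left out (Penk joined without Xin, Oprk1 without S1). For later days against Sham-0 day it ranged from 0 to 1. For Sprr1a over all neurons the count of 2 became 0 in labelled Sham, 0 in NF-like and 1 in SST-like neurons, at a limit of 500 CPM it stayed at 2 with Oprl1 in place of Pdyn, and in PEP-like neurons the count of 3 became 1 at that limit (Oprl1), 0 in labelled Sham, 0 in PEP1-like neurons, and 2 to 3 with a sample left out. With no filter and by DESeq2, Oprk1 joined the called members, 3 over all neurons and 4 in PEP-like neurons (−3.06 with no filter, −4.48 by DESeq2). Without the sample as a replicate block Oprl1 in PEP-like neurons was at −0.76 (adjusted p = 0.0929, not called), and the block changed no other call.

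All reversed log2 fold changes but one were of uncalled members, the exception being Oprl1 in PEP-like neurons by Sprr1a, called after SNC (−0.77) and at 0.11 in labelled Sham. Between labelled and added Sham these were Oprl1 in NP-like (1.10) and SST-like neurons (0.55), Oprm1 without Xin (0.20) and without S1 and S2 (0.049), and Pnoc without Sham sample 4 (−0.77). For Sprr1a over all neurons, Oprl1 reversed in labelled Sham (0.34) and NF-like neurons (0.28). Without Xin, Pdyn reversed at 1 d, 3 d and 7 d after SNC (0.20, 0.52 and 0.99) and Penk too (0.19, 0.18 and 1.11), all uncalled. At 1 d Pdyn also reversed with a term for when libraries were reverse transcribed (0.98), and Oprk1 in PEP-like neurons without 17-2 (−0.46). Over leave-one-out fits of these members the lowest and highest values were −0.26 and 0.20 for Oprm1, −0.77 and 0.87 for Pnoc, −1.66 and 0.20 for Pdyn and −0.46 and 2.93 for Oprk1.

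At 20000 UMIs per cell the overlaps fell to 2.48% for Oprm1 with Oprl1, 0.677% for Oprm1 with Pdyn, 0.677% for Oprm1 with Oprk1, 2.26% for Oprl1 with Pdyn, 0.811% for Oprm1 with Penk (added) and 2.64% for Oprk1 with Oprl1 (added). As a mean over cells, Oprl1 in 19-1 was 21.4 CPM. For the groups, no paired analysis was possible because no replicate number joins samples of different groups. A block for when libraries were reverse transcribed, run as an alternative, called 0 members, and 154 genes in SST-like neurons at 1 d where 0 were called without it. NP-like neurons after SNC and PEP3-like neurons by Sprr1a could not be fitted.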
